A study of Rattus norvegicus with 31 samples.

Results

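The genes of inositol synthesis and uptake were followed in irradiated rat testes under 3 hormonal treatments. The set holds 4 of the 14217 genes named on the Affymetrix rat genome array: Isyna1, Impa1, Impa2 and Slc5a3. They were taken by gene symbol, after Isyna1 had stood out in earlier results of the same arrays. Isyna1 was chosen for its changes, so its values are a description and carry no test. Isyna1, Impa1 and Impa2 each had 1 probe set and Slc5a3 had 2, of which the one with the higher mean over all arrays is the main one.

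Cells obtain myo-inositol by making it from glucose or by taking it up. Inositol-3-phosphate synthase, the product of Isyna1, converts glucose 6-phosphate to inositol 3-phosphate in the rate-limiting step, and inositol monophosphatases, the products of Impa1 and Impa2, remove the phosphate. The sodium-coupled carrier SMIT1, the product of Slc5a3, brings inositol in from outside the cell. Inositol is the head group of phosphatidylinositol and of the phosphoinositide second messengers, and it also serves as an organic osmolyte. The rat testis is rich in the synthase, and the fluid of the seminiferous tubules holds far more inositol than blood.

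All groups, sham included, were LBNF1 rats aged 25 to 27 weeks that had received 6 Gy of radiation to the lower abdomen. In 6 arrays the rats had estradiol together with a gonadotropin-releasing hormone (GnRH) antagonist and an androgen receptor antagonist. In 11 arrays they had hormonal ablation alone, which means the GnRH antagonist with flutamide, a blocker of the androgen receptor. In 14 arrays they had sham treatment. The labels of the estradiol arrays also speak of supplementation with follicle-stimulating hormone (FSH), although estradiol is the only added agent they list. Of the sham arrays, 4 are described as irradiated testes and 10 as control testes. The estradiol arrays were deposited later than the other 25, so treatment and deposit cannot be told apart in either comparison with that group. Values of the estradiol arrays also carry fewer decimals than those of the other 25. The labels call every array a biological replicate of whole-testis RNA, in which fewer cells of a type and less RNA per cell cannot be told apart.

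Values are MAS5 signals on a log scale read as log2, and array medians lay between -1.44 and -1.24. The filter level of an array, its 40th percentile, lay between -1.93 and -1.75, and a probe set was tested where at least 6 arrays had it above that level. Of the 5 member probe sets 3 were tested, those of Isyna1 and Impa1 and the main one of Slc5a3. Prm1 and Tnp1, genes of spermatids, both lay above the 60th percentile of their array in ablation replicates 4, 5 and 9 and in sham replicates 6 and 7. These 5 arrays stand apart, and calls of members and pathway genes lost without them are named.

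Isyna1 had a different level in each of the 3 groups. Its log2 signal ran between 1.10 and 1.74 in the estradiol plus ablation arrays, with a median of 1.38. In the ablation arrays the lowest value was -0.97, the median -0.64 and the highest -0.05. In the sham arrays the lowest was 2.16, the median 2.53 and the highest 2.86. No array of one group reached into the range of another, and the order was sham, then estradiol plus ablation, then ablation. Neighbouring groups were separated by empty gaps of 1.15 between the estradiol plus ablation arrays and the ablation arrays, and of 0.42 between the estradiol plus ablation arrays and the sham arrays. Every array was above the filter level. In the ablation arrays Isyna1 lay between percentiles 57.5 and 74.7 of its own array. Whether that signal counts as detected was not tested.

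**Figure D1:**
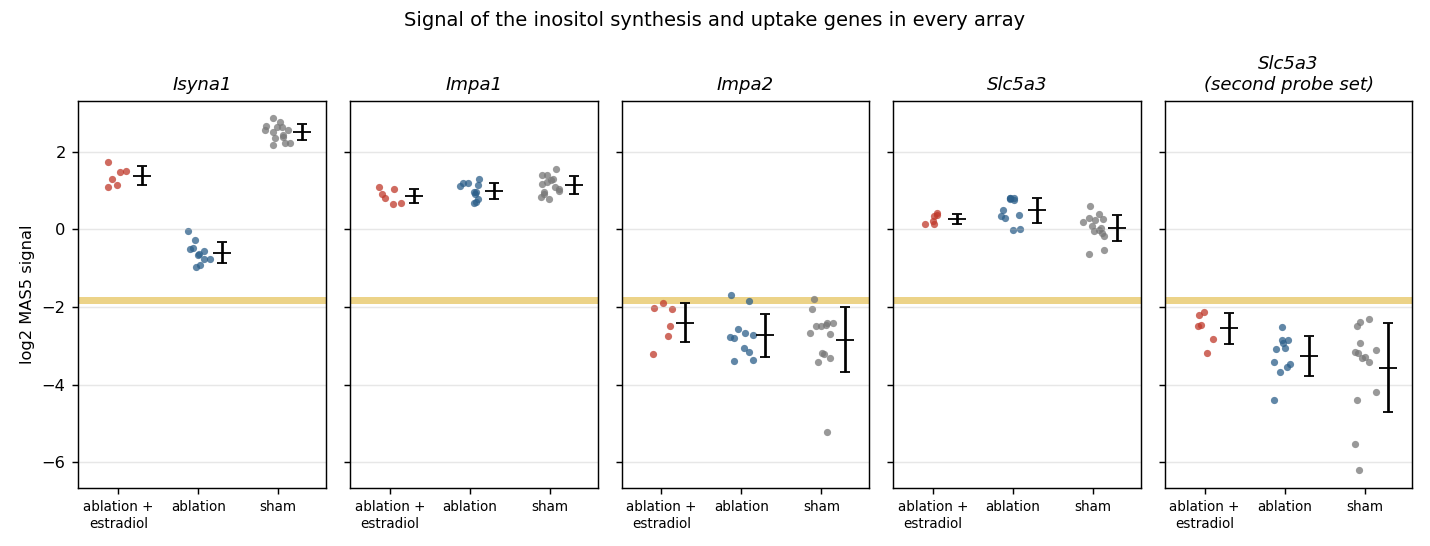
Log2 MAS5 signal (vertical axis) of the 5 member probe sets in every array, with the mean and SD of each group beside its points and the range of the filter level over arrays as a band. The 3 groups of Isyna1 do not overlap, those of Impa1 and Slc5a3 do, and Impa2 and the second Slc5a3 probe set lie at or below the band in nearly all arrays.

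The group means of Isyna1 were 1.37 ± 0.25 in the estradiol plus ablation arrays, -0.60 ± 0.27 in the ablation arrays and 2.50 ± 0.21 in the sham arrays (log2 signal, SD, n = 6, 11 and 14). With ablation the signal was 8.56-fold lower than with sham treatment, a log2 difference of -3.10 ± 0.096 (SE). By size this was the eighth lowest difference among 11387 genes (rank 8). Estradiol plus ablation was 3.93-fold above ablation alone, a log2 difference of 1.97 ± 0.12 (SE). This was the highest but 1 (rank 2 of 11387), below that of Greb1, which responds to estrogen in many tissues. Estradiol plus ablation remained 2.18-fold below sham, a log2 difference of -1.12 ± 0.12 (SE), which was rank 199 from the lowest.

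Measured on the log2 scale, the estradiol plus ablation mean stood 63.7% of the way up from the ablation mean to the sham mean. Single estradiol arrays stood at 54.9% to 75.5%, with a median of 63.9%. On the linear signal the same position was 38.8%, so the share depends on the scale. Within groups the spread of Isyna1 was somewhat under the median of 0.28 over kept genes. Its pooled within-group SD was 0.24, and 29.8% of kept genes had a smaller one. The 129 recomputed differences of Isyna1, over other filters, scalings, sham arrays and models and with each array left out in turn, all kept their direction and moved by less than 1 SD between replicates. Without the 5 arrays with spermatid RNA the difference of ablation against sham was -3.21.

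**Figure D2:**
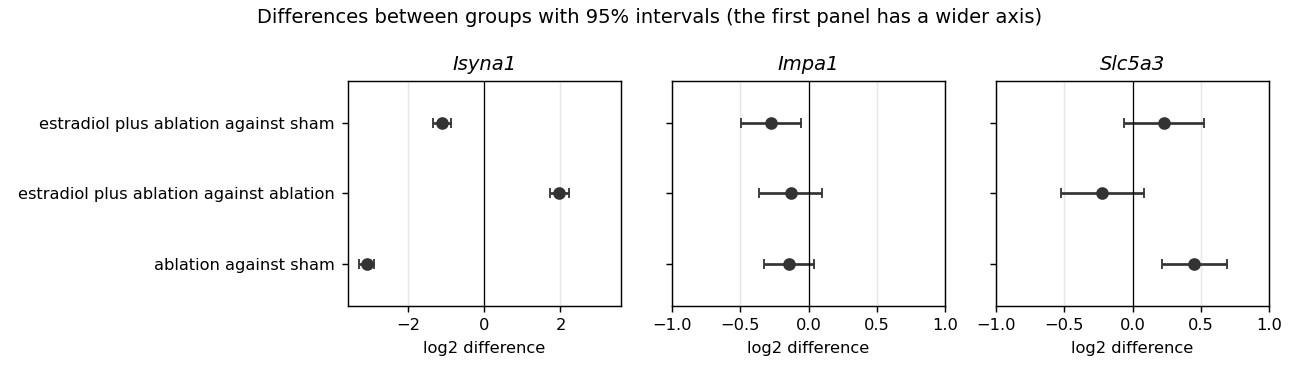
Log2 differences (horizontal axis) of Isyna1, Impa1 and the main Slc5a3 probe set in the 3 comparisons, as points with 95% intervals from the model over all 31 arrays; the Isyna1 axis is wider. Isyna1 was chosen for these differences, so its intervals describe their precision and are no test. Of the Impa1 and Slc5a3 intervals most reach 0 or lie close to it.

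Isyna1 lies on chromosome 16 of the rat assembly GRCr8, from 18873119 to 18876116, on the minus strand. The stretch around a transcript start given in RefSeq's promoter table is shown because the groups differ in estradiol and androgen action, and in it 6 motifs were searched on both strands. It covers 250 bases before and 50 bases from that start (GRCr8, chr16:18875906-18876205, minus strand, written 5′ to 3′), and capitals mark a match to the Sp1 box. The start lies at 18875955, 161 bases inside the annotated span of the gene, so the window takes in the gene's outer end at 18876116.
Isyna1 promoter: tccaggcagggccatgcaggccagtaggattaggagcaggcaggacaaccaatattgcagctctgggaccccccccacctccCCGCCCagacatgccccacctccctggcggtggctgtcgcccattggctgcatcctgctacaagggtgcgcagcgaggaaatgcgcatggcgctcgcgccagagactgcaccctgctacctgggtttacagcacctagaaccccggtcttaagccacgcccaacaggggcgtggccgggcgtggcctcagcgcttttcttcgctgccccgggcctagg
The palindromic estrogen response element GGTCANNNTGACC is not in this window, nor is its single arm GGTCA. Of 33469 rat promoters of the same length, 0.0269% hold the palindrome and 40.5% the arm. The palindromic androgen response element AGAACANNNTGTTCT is not in the window either, and 0.0149% of promoters hold it. Neither the cyclic AMP response element TGACGTCA (1.83% of promoters) nor the core TGGAAA bound by the osmotic stress factor Nfat5 (22.7%) is present. The Sp1 box GGGCGG occurs 1 time, read on the other strand at bases 83 to 88 of the window (chr16:18876118-18876123), 2 to 7 bases outside the annotated span, and 33.1% of promoters hold one. The arm is part of the palindromic estrogen element, and no other of these motifs contains another. The window had a GC content of 65.7%, against a median of 51.7% over all promoters, and 17 CG pairs. The Impa2 window held 6 Sp1 boxes and 1 TGGAAA core and the Slc5a3 window none of the 6 motifs. A match or its absence describes these letters only.

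The monophosphatase step, which follows the synthase, varied far less. Impa1 (chr2:93370200-93391474, GRCr8) ran between 0.66 and 1.08 in the estradiol plus ablation arrays, with a median of 0.85. The ablation arrays ran between 0.67 and 1.29 with a median of 0.96, and the sham arrays between 0.78 and 1.55 with a median of 1.12 (log2 signal). The 3 ranges overlap over most of their width. The means were 0.86 ± 0.18, 0.99 ± 0.21 and 1.13 ± 0.23 in the estradiol plus ablation, ablation and sham arrays (SD, n = 6, 11 and 14).

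No comparison of Impa1 passed limma's test over all probe sets. Ablation minus sham was -0.14 (95% interval -0.33 to 0.04, adjusted p = 0.283, limma). Estradiol plus ablation minus ablation was -0.13 (interval -0.36 to 0.10, adjusted p = 0.629, limma). Estradiol plus ablation minus sham was -0.27 (interval -0.49 to -0.05, adjusted p = 0.0892, limma), with all 6 estradiol arrays below the sham mean and 2 of them below every sham array. Against the 4 sham arrays described as irradiated that last difference was -0.49 and passed (adjusted p = 0.0189, limma). Those 4 arrays averaged 1.35 ± 0.17 and the 10 described as control 1.04 ± 0.20 (SD), a difference of 0.31 ± 0.13 (SE) that did not pass a test over all probe sets (raw p = 0.0253, adjusted p = 1, limma). In that test of the sham arrays by description 0 of 21269 probe sets passed and 513 had a raw p under 0.05 with limma.

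Impa2, the second monophosphatase gene (chr18:63104113-63135232, GRCr8), was below the filter level in most arrays of every group. In the estradiol plus ablation arrays the lowest value was -3.20, the median -2.28 and the highest -1.90. The ablation arrays ran between -3.39 and -1.69 with a median of -2.77, and the sham arrays between -5.22 and -1.80 with a median of -2.57 (log2 signal). Of all 31 arrays 2 exceeded the filter level, 1 with ablation and 1 with sham treatment, so Impa2 was not tested. The differences were 0.11 for ablation minus sham, 0.32 for estradiol plus ablation minus ablation and 0.44 for estradiol plus ablation minus sham. With values under the filter level raised to it they were 0.02, -0.06 and -0.04, so nearly all of the difference lies below the level at which probe sets were tested.

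Slc5a3, the inositol carrier, differed in the opposite direction to Isyna1 with ablation and by much less. The gene lies at chr11:44799787-44802233 (GRCr8). Its main probe set ran between 0.13 and 0.42 in the estradiol plus ablation arrays, with a median of 0.28. The ablation arrays ran between -0.03 and 0.81 with a median of 0.49, and the sham arrays between -0.64 and 0.59 with a median of 0.05 (log2 signal). The groups overlap, and 5 of the 11 ablation arrays lay above every sham array. The means were 0.27 ± 0.12, 0.49 ± 0.32 and 0.04 ± 0.33 in the estradiol plus ablation, ablation and sham arrays (SD, n = 6, 11 and 14).

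Slc5a3 was 1.37-fold higher with ablation than with sham, a log2 difference of 0.45 ± 0.12 (SE, 95% interval 0.21 to 0.69, adjusted p = 0.00541, limma), and 9 of 11 ablation arrays lay above the sham mean. Against the 4 sham arrays described as irradiated the difference had the same size, 0.45, and no longer passed (adjusted p = 0.0544, limma). Estradiol plus ablation was 0.22 below ablation (interval -0.52 to 0.08, adjusted p = 0.495, limma), written as a difference of -0.22. It was 0.23 above sham (interval -0.06 to 0.52, adjusted p = 0.333, limma). The estradiol level therefore lay between the 2 others without differing from either beyond the test's threshold. The second Slc5a3 probe set was under the filter level in all 31 arrays and was not tested. Its means were -2.55 ± 0.39, -3.25 ± 0.52 and -3.57 ± 1.15 in the estradiol plus ablation, ablation and sham arrays (SD). Its order of groups differs from that of the main probe set, which has the ablation arrays highest.

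Of the 3 members tested, ablation against sham called 2, Isyna1 lower and Slc5a3 higher, where 22.1% of all 11387 genes were called, 12.8% lower and 9.23% higher. Over single probe sets the shares called were 19.4% for this comparison, 5.52% for estradiol plus ablation against ablation and 14.5% for estradiol plus ablation against sham. Between estradiol plus ablation and ablation Isyna1 alone was called, higher, where 0.729% of genes were called higher and 3.46% in either direction. Estradiol plus ablation against sham also called Isyna1 alone, lower, where 11.9% of genes were lower and 17.2% were called in either direction. Groups that did not overlap, as for Isyna1, were seen in 1.4% of probe sets (lower, ablation against sham), 0.193% (higher, estradiol plus ablation against ablation) and 2.15% (lower, estradiol plus ablation against sham). Isyna1 was chosen on these contrasts, so its calls add nothing to its description. In these tests Isyna1 entered as 1 of 21269 probe sets and its p is not given.

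Within groups 1 relation between the levels of members passed, by Pearson's r. With 6, 11 or 14 arrays in a group, the other relations are not shown to be absent. Of 18 relations between pairs of the 4 genes, 1 passed after Benjamini-Hochberg adjustment, that of Impa1 with Slc5a3 in the 6 estradiol plus ablation arrays. Pearson's r was 0.985 (exact permutation p = 0.00139, adjusted p = 0.025) and Spearman's rho 1 (exact permutation p = 0.00278, adjusted p = 0.05). The value for rho lies at the threshold and not under it. Without the 2 arrays farthest from the median of Impa1 r was 0.968 over 4 arrays. In the ablation arrays r was 0.599 (permutation p = 0.0532, adjusted p = 0.416) and in the sham arrays 0.467 (permutation p = 0.0925, adjusted p = 0.416). After quantile normalization the 3 values were 0.864, 0.216 and 0.228. Isyna1 passed with neither Impa1, Impa2 nor Slc5a3 in any group. Its r with Impa1 in the ablation arrays was -0.547 (permutation p = 0.0794, adjusted p = 0.416).

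Among the other genes of inositol metabolism and signalling no shift of the size of Isyna1 was seen. Of 76 listed genes beside the members, 71 were named on the array and 67 were tested. With ablation against sham 3 were higher and 12 lower, 22.4% called against 22.1% of all genes. With estradiol plus ablation against ablation 1 was higher and 1 lower, 2.99% against 3.46% of all genes, with 2.73% of all lower. With estradiol plus ablation against sham 1 was higher and 9 lower, 14.9% against 17.2% of all genes, with 5.28% of all higher. None of the called genes changed by 2-fold or more in any comparison. The median log2 differences over the 67 genes were -0.02, -0.04 and -0.09 in the order of these comparisons, against 0.0008, -0.02 and -0.03 over all genes. Without the 5 arrays with spermatid RNA the counts of higher and lower genes were 4 and 8, then 0 and 1, then 0 and 10. The calls lost without them were those of Bpnt1, Pip5k1b, Pgm2 and Plcb1 with ablation against sham, Minpp1 with estradiol plus ablation against ablation, and Ocrl and Pip4k2a with estradiol plus ablation against sham. With quantile normalization the counts were 7 higher and 13 lower, then 2 and 1, then 6 and 7, so the balance of directions depends on the scaling.

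The pathway calls differed in how well they held. Those of Hk1, Gpi, Cds1, Inpp4a and Ppip5k1 with ablation against sham, of Plcb4 with estradiol plus ablation against ablation, and of Hk1, Gpi, Plcb4 and Inpp4a with estradiol plus ablation against sham passed in each of the 11 or 12 other settings run for them. The other 17 named calls were lost in 1 to 9 settings. With sham limited to its 4 arrays described as irradiated, the calls lost with ablation against sham included Nudt4, Slc38a2, Pip5k1c, Plce1, Plcb1 and Inpp5a. With sham limited to the 10 described as control, they included Pgm2, Pip5k1c, Plcd1 and Inpp5a.

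**Figure D3:**
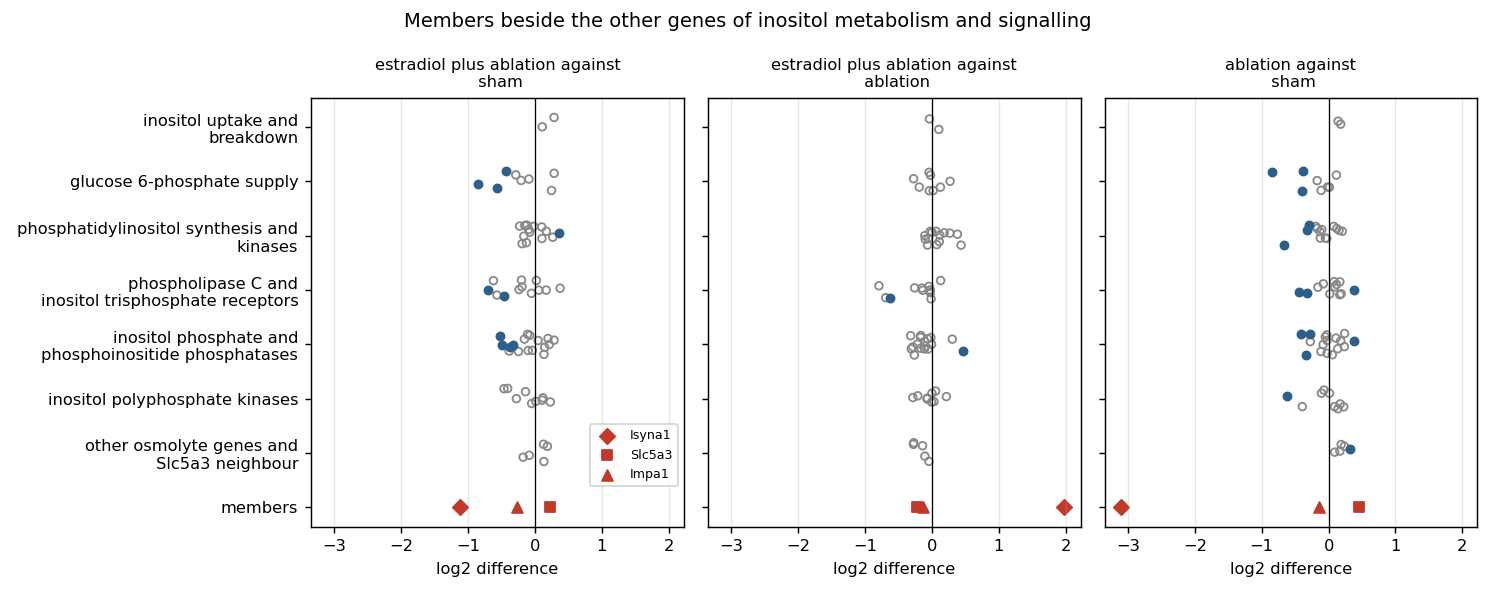
Log2 differences (horizontal axis) of the tested genes of each list in the 3 comparisons, filled where called and open where not, with the 3 tested members on the lowest row. Isyna1 lies beyond every other gene with ablation against sham and with estradiol plus ablation against ablation.

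Genes that supply or use glucose 6-phosphate, the substrate of the synthase, included the lowest of these changes with ablation, that of Hk1. Their median difference with ablation against sham was -0.14. Of 8 tested, 3 fell and none rose with ablation against sham, where 12.8% of all genes fell and 9.23% rose. Hk1, the hexokinase that phosphorylates glucose, averaged 0.30 ± 0.27 in the ablation arrays and 1.14 ± 0.50 in the sham arrays (log2 signal, SD). It fell by 0.84 on the log2 scale (adjusted p = 4.93e-05, limma), and 7 of the 11 ablation arrays lay below every sham array. Gpi, the isomerase that turns glucose 6-phosphate towards glycolysis, fell by 0.39 and Pgm2, a phosphoglucomutase, by 0.38. The same 3 genes were lower with estradiol plus ablation than with sham, at -0.86 for Hk1, -0.44 for Gpi and -0.57 for Pgm2. Among all genes 11.9% were lower in that comparison. Hk1 differed by -0.02 between estradiol plus ablation and ablation, a comparison in which none of the 8 and 3.46% of all genes passed.

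Of 14 tested genes of phosphatidylinositol synthesis and phosphorylation, 3 fell with ablation against sham, where 12.8% of all genes fell. Cds1, which makes the CDP-diacylglycerol that is joined to inositol, fell by 0.67 (adjusted p = 0.00254, limma). Pip5k1c and Pip5k1b, kinases that make phosphatidylinositol 4,5-bisphosphate, fell by 0.32 and 0.29, and the call of Pip5k1b was lost in 22 of 31 fits that left out an array. Cdipt, the enzyme that joins inositol to the lipid, differed by -0.12 with ablation (adjusted p = 0.225, limma). None passed for estradiol plus ablation against ablation, where 3.46% of all genes did. With estradiol plus ablation against sham 1 passed, where 17.2% of all genes did. Pip4k2a, a kinase of phosphatidylinositol 5-phosphate, was 0.36 higher with estradiol plus ablation than with sham, a call lost in 13 of 31 such fits and without the arrays with spermatid RNA (adjusted p = 0.0548, limma).

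Phospholipase C enzymes, which release inositol trisphosphate, moved in both directions. Of 12 tested genes of this list, receptors of inositol trisphosphate included, 1 rose and 2 fell with ablation against sham: Plce1 by 0.39, Plcb1 at -0.44 and Plcd1 at -0.33. Among all genes 9.23% rose and 12.8% fell in that comparison. The call of Plcd1 was lost in 21 of 31 fits that left out an array. Plcb4 was the one called gene of the list for estradiol plus ablation against ablation, where 2.73% of all genes were lower. It averaged 0.56 ± 0.41 in the estradiol plus ablation arrays, 1.18 ± 0.20 in the ablation arrays and 1.26 ± 0.16 in the sham arrays (log2 signal, SD). It was 0.63 lower with estradiol plus ablation than with ablation, at -0.63 (adjusted p = 0.000679, limma), and 0.71 lower than with sham, at -0.71 (adjusted p = 2.37e-05, limma). In the estradiol group 5 of 6 arrays lay below every ablation array. Isyna1, at 1.97, lay on the other side of 0 in the comparison with ablation. Plcb1 was also lower with estradiol plus ablation than with sham, at -0.46 (adjusted p = 0.0341, limma), where 11.9% of all genes were lower. That call was lost in 6 of 31 fits that left out an array. The receptors Itpr1, Itpr2 and Itpr3 passed in none of the 3 comparisons.

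Phosphatases of inositol phosphates and phosphoinositides had 1 higher and 3 lower of 17 tested with ablation against sham. Among all genes 9.23% were higher and 12.8% lower. Nudt4, which removes phosphate from diphosphoinositol polyphosphates, rose by 0.38 (adjusted p = 0.00221, limma), and Inpp4a, a phosphoinositide 4-phosphatase, fell by 0.42. Inpp5a fell by 0.33 and Bpnt1, which also acts on inositol 1,4-bisphosphate, by 0.27, and these calls were lost in 6 and in 22 of 31 fits that left out an array. Minpp1, which dephosphorylates inositol polyphosphates, was the one called gene for estradiol plus ablation against ablation, where 0.729% of all genes were higher. It averaged 1.34 ± 0.21 in the estradiol plus ablation arrays and 0.88 ± 0.24 in the ablation arrays, a difference of 0.47 (adjusted p = 0.0391, limma). That call was lost in 11 of 31 fits that left out an array, with adjusted p up to 0.12 (limma), and without the arrays with spermatid RNA (0.43, adjusted p = 0.125, limma). Against sham, estradiol plus ablation had 4 lower: Bpnt1 at -0.49, Inpp4a at -0.52, Inpp1 at -0.37 and Ocrl at -0.33, the last of which lost its call in 14 of 31 fits that left out an array. Among all genes 11.9% were lower in that comparison.

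Among 9 tested kinases of inositol polyphosphates 1 fell with ablation against sham, where 12.8% of all genes fell. None passed in the other 2 comparisons. Ppip5k1, which makes diphosphoinositol polyphosphates, averaged -1.61 ± 0.38 in the ablation arrays and -0.98 ± 0.15 in the sham arrays (log2 signal, SD). It fell by 0.63 (adjusted p = 0.00025, limma), with 10 of 11 ablation arrays below every sham array. With estradiol plus ablation it averaged -1.39 ± 0.37, a difference of 0.22 from ablation (adjusted p = 0.525, limma).

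Other genes of inositol transport and breakdown did not pass. Slc2a13, a proton-coupled inositol carrier, differed by 0.18 with ablation against sham, 0.10 with estradiol plus ablation against ablation and 0.28 with estradiol plus ablation against sham. Miox, the oxygenase that opens the inositol ring, differed by 0.14, -0.03 and 0.11 in the same order. Of 5 tested osmolyte genes and the neighbour of Slc5a3, 1 passed with ablation against sham, where 22.1% of all genes passed. Slc38a2, an amino acid carrier that osmotic stress induces, rose by 0.32 (adjusted p = 0.0148, limma). Nfat5, the transcription factor of osmotic stress that drives Slc5a3 in other tissues, differed by 0.09 (adjusted p = 0.676, limma). Akr1b1, an aldose reductase, and Slc6a6, a taurine carrier, which it also drives, differed by 0.17 and 0.19 and did not pass. Mrps6, a mitochondrial ribosomal protein gene next to Slc5a3, differed by 0.24 (adjusted p = 0.0594, limma).

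Markers of testicular cell types also moved between the groups. Among all genes 9.23% rose and 12.8% fell with ablation against sham. With estradiol plus ablation against ablation 0.729% rose and 2.73% fell. Of 7 Leydig cell markers, all tested, 2 rose and 5 fell with ablation against sham. None rose and 3 fell with estradiol plus ablation against ablation. Their mean log2 signal per array ran between 0.45 and 1.09 in the estradiol plus ablation arrays, between 0.88 and 1.58 in the ablation arrays and between 2.39 and 3.22 in the sham arrays. Their summed linear signal ran between 33.2 and 68.3, between 46.0 and 62.7 and between 54.5 and 112 in the same order. Insl3, the Leydig cell peptide hormone, had group means of -2.09, -0.21 and 4.28 in the estradiol plus ablation, ablation and sham arrays, the first under the filter level. Cyp17a1, an enzyme of androgen synthesis, had 0.61, 2.46 and 4.67 in that order. Insl3 differed by -4.49 and Cyp17a1 by -2.20 with ablation against sham, and by -1.88 and -1.85 with estradiol plus ablation against ablation, where the values of Isyna1 were -3.10 and 1.97. Of the other Leydig cell markers, Hsd3b1 and Lhcgr rose with ablation against sham, by 0.39 and 0.35. Cyp11a1, Hsd17b3 and Star fell, at -1.91, -1.31 and -0.86. With estradiol plus ablation against ablation Cyp11a1 fell, at -0.56. Hsd3b1, Lhcgr, Star and Hsd17b3 differed there by 0.09, 0.11, 0.11 and 0.14 and did not pass.

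Of the 6 Sertoli cell markers tested out of 10 listed, 3 rose and none fell with ablation against sham, where 9.23% of all genes rose. None of the 6 passed with estradiol plus ablation against ablation, where 3.46% of all genes did. Over all 8 markers named on the array, with 2 averaging below the filter level in each group, the mean log2 signal ran between 1.90 and 2.28 in the estradiol plus ablation arrays, between 1.76 and 2.40 in the ablation arrays and between 1.33 and 2.16 in the sham arrays. Inha, the inhibin alpha subunit made by Sertoli cells, rose by 0.41 with ablation and differed by 0.39 between estradiol plus ablation and ablation (adjusted p = 0.0577, limma). The other 5 tested Sertoli cell markers differed there by 0.10 (Gata4), -0.05 (Wt1), -0.24 (Cldn11), -0.28 (Clu) and -0.47 (Espn). All 5 tested spermatogonial markers rose with ablation against sham and 2 rose further with estradiol plus ablation against ablation. Among all genes 9.23% rose and 12.8% fell in the first of these comparisons, and 0.729% rose and 2.73% fell in the second. With ablation against sham 5 of 6 macrophage markers, 2 of 4 tested endothelial markers (Kdr at -0.55 and Pecam1 at -0.35) and 3 of 5 peritubular myoid and smooth muscle markers (Tagln at -1.07, Cnn1 at -0.58 and Myh11 at -0.38) fell, and none of these 3 lists had a call between estradiol plus ablation and ablation. Of 5 tested markers of meiotic and later germ cells 1 rose with ablation against sham and 1, Prm1, fell with estradiol plus ablation against ablation. Prm1 averaged -5.0 ± 1.4 in the estradiol plus ablation arrays, under the filter level, and -0.43 ± 2.83 in the ablation arrays (log2 signal, SD). Ablation replicates 4, 5 and 9, which stand apart for spermatid RNA, had 4.18, 1.44 and 2.32. The call of Prm1 without them is not given here. The part of cell composition in the levels of Isyna1 and Slc5a3 was not tested.

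**Figure D4:**
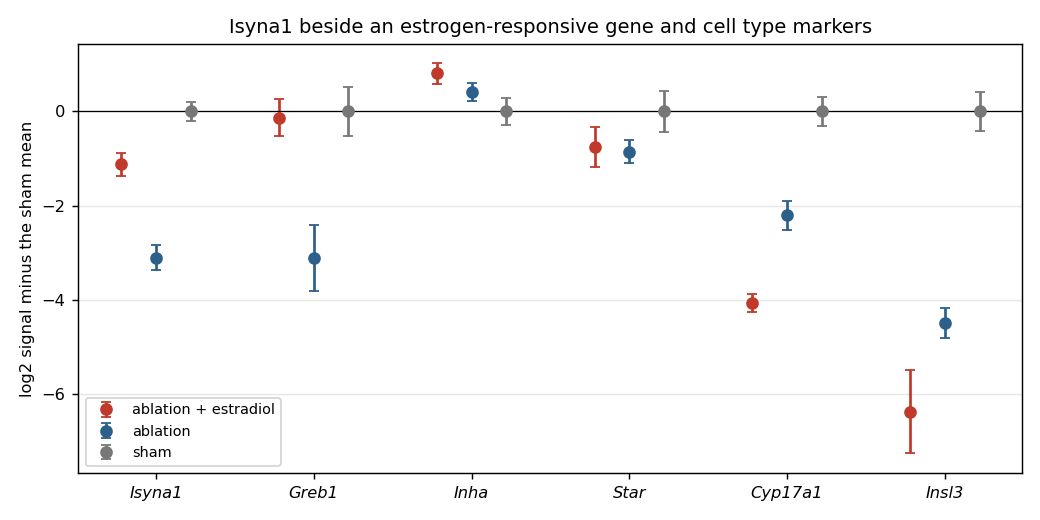
Log2 signal minus the sham mean (vertical axis) of Isyna1, of Greb1 and of 4 marker genes, as group means with SD for 6 estradiol plus ablation, 11 ablation and 14 sham arrays. Isyna1 and Greb1 are higher in the estradiol plus ablation arrays than in the ablation arrays, Inha by less, Star hardly, and Cyp17a1 and Insl3 are lower.

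The genes whose values lay closest to those of Isyna1 were found by the mean absolute distance between log2 deviations from each gene's own mean, over all 31 arrays and 11271 genes. The median distance was 1.27, and the 8 closest genes lay between 0.475 and 0.634. They were Igf1, a growth factor, G0s2, an inhibitor of triglyceride breakdown, Svs5, a seminal vesicle secretory protein, Col1a1, a collagen chain, Greb1, Rida, an imine deaminase, Timp1, an inhibitor of matrix proteases, and Hsd11b1, which activates glucocorticoids. All 8 were lower with ablation than with sham, with Greb1 at -3.10, Igf1 at -2.67 and Timp1 at -2.31, against -3.10 for Isyna1. With estradiol plus ablation against ablation they were less alike. Greb1 differed by 2.97, Svs5 by 0.96, G0s2 by 0.93 and Igf1 by 0.51, while Col1a1, Rida, Hsd11b1 and Timp1 differed by 0.19, 0.13, 0.09 and -0.08, against 1.97 for Isyna1. In the ablation arrays Svs5 and Greb1 averaged below the filter level. The comparisons share arrays, and the 8 genes were chosen for likeness, so these differences carry no test. When sham was limited to its 4 arrays described as irradiated, 4 of the 8 were among the closest.

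Of the 8 genes, Greb1 had the estradiol plus ablation mean nearest to sham. Its means were 1.05 ± 0.40, -1.93 ± 0.69 and 1.17 ± 0.52 in the estradiol plus ablation, ablation and sham arrays (log2 signal, SD), and estradiol plus ablation minus sham was -0.13. The ranges of Greb1 in these 2 groups overlap, at 0.35 to 1.52 with estradiol plus ablation and 0.40 to 2.44 with sham, where those of Isyna1 do not.

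**Figure D5:**
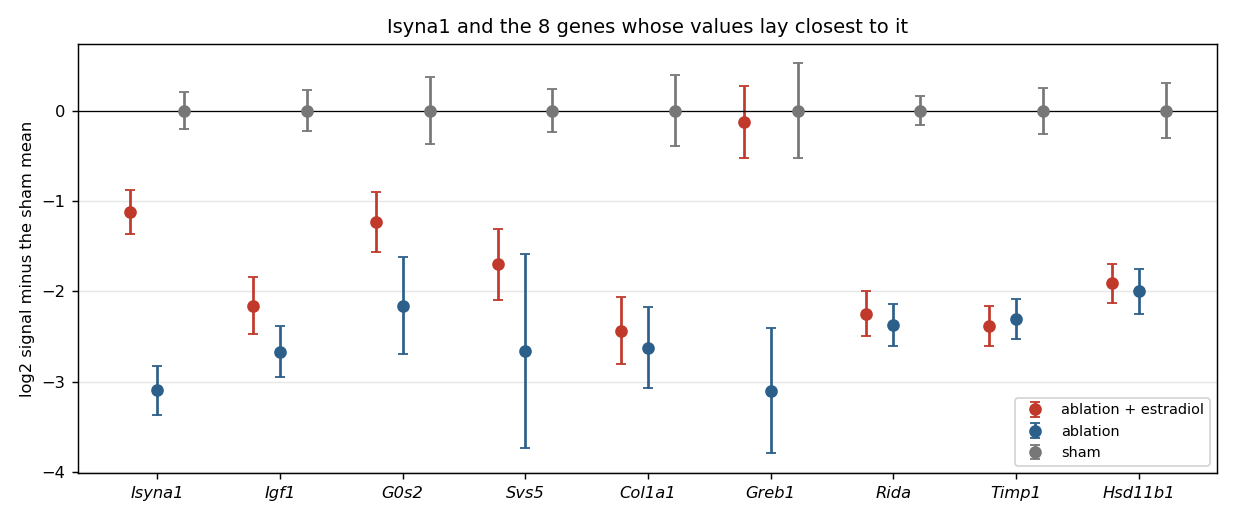
Log2 signal minus the sham mean (vertical axis) of Isyna1 and the 8 genes closest to it, ordered by distance, as group means with SD for 6 estradiol plus ablation, 11 ablation and 14 sham arrays. All lie lower in ablation arrays than in sham arrays, and the estradiol plus ablation means differ from gene to gene, from level with the ablation mean for Timp1 to level with the sham mean for Greb1.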

How the data were processed

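Total RNA of whole rat testes was labelled with biotin and hybridised to Affymetrix rat genome arrays, 1 array per sample. The deposited table holds MAS5 signals on a log scale, per the submitters' processing notes for the tool and from the values for the scale. The version of MAS5, the log base and the scaling target are not given in the sources used here. The widest range within 1 array was 19.3 units, a 640293-fold span if the deposited values are log2 and 238141000-fold if they are natural logarithms. Fold changes rest on the reading as log2.

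Of 31099 probe sets 57 Affymetrix controls were left out, and 21269 passed the filter (above the 40th percentile of its own array in at least 6 arrays). Names came from the platform annotation, with the symbol updated through the Entrez number for 20758 probe sets, and 20826 of 31042 had 1 symbol, 436 several and 9780 none. For each of 11387 genes the kept probe set with the highest mean stands for the gene. Where signals are given as linear, 2 was raised to the log2 value.

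Groups followed the treatment labels. Limma 3.58.1 in R 4.3.3 fitted all 31 arrays with 3 groups and a variance trend, with Benjamini-Hochberg adjustment of p-values over the 21269 probe sets. Tests were 2-sided, and a probe set or gene is called at an adjusted p under 0.05. Where a gene has several kept probe sets, the others were not used. The 2 descriptions of sham arrays were compared in a fit of their own. No batch term could be fitted, since the estradiol group is its own deposit. The number of arrays limits the precision. Correlations between members used exact permutation over 6 arrays and 100000 resamples otherwise (scipy 1.17.1). The limma fit was tried on simulated data with known changes, and the other steps were not. No arrays were identical. The labels name no pairing by replicate number, and the main fit used none. Correlations of same-numbered deviations were -0.086 to 0.047 for ablation with sham and -0.18 to 0.059 for estradiol plus ablation with ablation. For estradiol plus ablation with sham they were -0.011 to 0.376, and 3 of 6 exceeded 0.1.

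The members, gene lists and tests were chosen with earlier results of these data known. Named genes are the members, up to 4 called genes with the smallest adjusted p per pathway list and comparison, the 8 genes closest to Isyna1, and 6 fixed genes, among them Greb1 and Insl3, where a comparison turns on them. Genes given as not called, and cell type markers other than the fixed genes, were named after their values were seen. Other settings tried were a filter at the 60th percentile or none, quantile normalization, median centring, only the compared groups, the sham arrays of 1 description, a replicate block, values raised to the filter level, robust or untrended variances, leaving out each array, and leaving out the arrays with spermatid RNA. The lists of closest genes under other settings were added after seeing the data. Promoters came from RefSeq (GRCr8). Of the members Isyna1, Impa2 and Slc5a3 had one in that table.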

Additional observations from a re-analysis of the deposited data

Results flagged for a closer look

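In the 6 estradiol plus ablation arrays, 1 array lay far from the other 5 for 5 of 39 genes checked by Dixon's test, and chance marks about 1 in 20 such groups. Slc38a2 was 1.48 in replicate 5, where the nearest other array was 1.98. Ocrl was -0.06 in replicate 5, where the nearest was 0.42. Pgm2 was 0.09 in replicate 3, where the nearest was -0.63. Insl3 was -3.82 in replicate 3, where the nearest was -2.09. Prm1 was -2.43 in replicate 5, where the nearest was -4.77 (log2 signal). None of the 4 inositol synthesis and uptake genes was marked.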

How the results depend on the processing

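Isyna1 kept its direction and stayed within 1 SD in all 129 recomputed differences. With each array left out in turn it ran between -3.15 and -3.06 (ablation against sham), 1.90 and 2.03 (estradiol plus ablation against ablation) and -1.20 and -1.07 (estradiol plus ablation against sham), and its position between ablation and sham between 61.3% and 65.5%. When sham was limited to its 4 arrays described as irradiated, which leaves fewer arrays, the called probe sets were 2345 for ablation against sham (4128 with all) and 1702 for estradiol plus ablation against sham (3093 with all), Slc5a3 with ablation was 0.45 (adjusted p = 0.0544, limma) and Impa1 with estradiol plus ablation against sham -0.49 (adjusted p = 0.0189, limma). With the replicate block the counts were 2745, 588 (1173 without it) and 1988, and Slc5a3 with ablation 0.47 (adjusted p = 0.0544, limma). Same-numbered arrays correlated best with each other for 0 of 11, 0 of 6 and 3 of 6 numbers. The labels name no pairing of arrays, so the block is given only as another setting. Counts with each array left out ran between 3724 and 4455, 830 and 1242, and 2540 and 3197. The share of higher calls moved for estradiol plus ablation against ablation and was 10.7% as deposited, 24% with quantile normalization and 20.1% with median centring, for estradiol plus ablation against sham 28.5% as deposited and 47.2% with quantile normalization, and for ablation against sham 47.2% with all sham arrays and 36.4% with those described as irradiated. Values raised to the filter level turned the second Slc5a3 probe set to -0.046 (estradiol plus ablation against ablation) and -0.030 (against sham).

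Of 27 named pathway gene results, 10 were called under each of the 11 or 12 settings run for them other than leaving out an array (Ppip5k1 and Plce1 were not tested at the 60th percentile filter) and 18 in every fit that left out an array, and none reversed. With 1 array left out, calls with ablation against sham were lost for Bpnt1, Pip5k1b and Plcd1 in most fits (adjusted p up to 0.102, 0.104 and 0.112) and for Inpp5a without ablation 1, 4 or 6 or sham 1, 5 or 13 (up to 0.0768). Minpp1 was lost without estradiol 1, 3, 5 or 6 or ablation 2, 3, 4, 5, 6, 9 or 11 (0.40 without estradiol 1). For estradiol plus ablation against sham, Inpp1 was lost without estradiol 5 (-0.30, adjusted p = 0.0618), Plcb1 without estradiol 2, 3 or 6 or sham 2, 10 or 11, and Ocrl and Pip4k2a in 14 and 13 fits (all limma). With the replicate block, calls were lost for Bpnt1, Pip5k1b, Inpp5a, Pip5k1c and Plce1 with ablation against sham and for Bpnt1, Ocrl, Pgm2, Inpp1, Plcb1 and Pip4k2a with estradiol plus ablation against sham. The mean over all kept probe sets gave no separate value, since each tested member has 1.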
